A study of Homo sapiens with 12 samples.

Results

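The genes described here were 10 matrix glycoprotein and matricellular genes, chosen by symbol: FN1, THBS1, THBS2, SPARC, TGFBI, TNC, POSTN, FBN1, FBN2 and FBLN5. Of these 10, 9 were among the 19907 symbols with values in all 12 libraries and all 9 were among the 18579 symbols tested. The expression of POSTN was not analysed here. The study sequenced mRNA libraries of MDA-MB-231 cells, an established triple-negative breast cancer cell line, to ask how a phosphorylation site of the glucocorticoid receptor (GR, encoded by NR3C1) bears on gene expression with and without transforming growth factor β1 (TGFβ1). The wt-GR cells were 1 non-targeted clone, and the S134A-GR cells were clone 1 of a CRISPR knock-in that replaced a serine of GR by alanine (S134A) in both alleles. All cells of both lines were held in medium with 1% charcoal-stripped serum for 18 h without added hormone and were then treated for 6 h with vehicle or with TGFβ1 at 10 ng/mL, which gave 4 groups of 3 libraries. Nothing in the labels ties the 3 libraries of a group to separate cultures, so the p-values measure the spread between these libraries, and with 1 clone per line the effect of the substitution and that of the clone cannot be told apart.

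Matrix glycoproteins are secreted by cells and link collagens, growth factors and integrin receptors outside the cell. Fibronectin (FN1) is assembled into fibrils through integrins, fibrillins (FBN1, FBN2) build the microfibrils on which elastic fibres form with the help of fibulin 5 (FBLN5), and the matricellular proteins thrombospondin 1 and 2 (THBS1, THBS2), SPARC, tenascin C (TNC) and TGFBI tune adhesion more than they bear load. THBS1 can activate latent TGFβ, fibrillin microfibrils store it, and TGFBI was named for its induction by TGFβ.

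Depth ranged from 56362036 to 129832227 assigned reads per library, and the library with the fewest reads was wt-GR vehicle replicate 1. These totals were recovered from the deposited values and lie above the mean number of reads that the labels state, and the reason for this gap was not tested, so a recovered read may not be 1 sequenced fragment. Values are normalized counts, that is reads divided by the DESeq2 size factor of the library. NR3C1 itself was lower in S134A-GR than in wt-GR cells by 0.41 on the log2 scale under vehicle (adjusted p = 0.00012) and by 0.31 under TGFβ1 (adjusted p = 0.00134, limma), which is a level and does not show the substitution. The treatment check list rose as a whole, with 8 of 8 genes past the threshold in both lines. Over all tested genes 11.2% were higher with TGFβ1 in wt-GR and 10% in S134A-GR cells. The list was chosen with earlier results of these data known, so it is a weak check of the treatment. The line's defining markers VIM, CD44, ZEB1 and AXL were expressed in every library, summing to between 585600 and 722900 normalized counts, and CDH1 stayed at or below 12.5. EPCAM, expected to be low, was at 1024 ± 64.6 in wt-GR vehicle and 378.2 ± 51.7 in S134A-GR vehicle (SD, n = 3). Among 6 fibroblast markers PDGFRB made up most of the sum, which was 2131 to 2201 in wt-GR vehicle, 3739 to 4043 in wt-GR TGFβ1, 1853 to 1964 in S134A-GR vehicle and 2059 to 2316 in S134A-GR TGFβ1. The fibroblast genes DCN and FAP stayed at or below 4.07 in every library. LUM was also low in wt-GR libraries, at or below 4.44, and was at 0 in all S134A-GR libraries. Under TGFβ1 PDGFRA was at 26.4 ± 7.66 in wt-GR and 8.24 ± 6.09 in S134A-GR, and COL3A1 at 0.58 ± 0.525 and 11.1 ± 6.77. The 4 endothelial markers summed to 1960 to 2110 in wt-GR vehicle and 1551 to 1638 in S134A-GR vehicle, and to 1536 to 1556 and 997.9 to 1192 under TGFβ1, with CDH5 at 186.6 ± 31.1 and 19.0 ± 7.61 in the vehicle groups. The 3 leukocyte markers summed to 27950 to 28260 in wt-GR vehicle and 40570 to 42870 in S134A-GR vehicle, and to 26590 to 27810 and 39130 to 42220 under TGFβ1, nearly all from CD68. PTPRC, the pan-leukocyte gene, averaged at most 7.18 in a group. CD14 went the other way from CD68, at 30.4 ± 6.13 in wt-GR vehicle and 4.62 ± 2.55 in S134A-GR vehicle, and at 14.7 ± 8.14 and 7.14 ± 1.25 under TGFβ1. Their part in the values of the members was not tested.

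Per kilobase of transcript, which is the scale on which levels of different genes can be set side by side, TGFBI was the most abundant member in every group and FBN2 the least. In wt-GR vehicle the order of levels was TGFBI (37230 ± 809 normalized counts per kb, SD, n = 3), SPARC (17030 ± 133), FN1 (5083 ± 1640), THBS1 (4409 ± 490), TNC (3518 ± 627), FBN1 (663.7 ± 240), FBLN5 (59.2 ± 6.79), THBS2 (6.60 ± 1.43) and FBN2 (1.04 ± 0.413). FN1 was above THBS1 in 2 of 3 libraries of this group, a gap no larger than its spread, and THBS1 was above TNC in 3 of 3, by 891 ± 146 normalized counts per kb (SD, n = 3). In S134A-GR vehicle the third place went to TNC (5969 ± 254), followed by THBS1 (3955 ± 162) and FN1 (1142 ± 44.9), with gaps larger than the SDs. TGFBI ranked 125 among 14547 genes with a transcript length in wt-GR vehicle and 88 after TGFβ1, while FN1 ranked 1320 in wt-GR vehicle and 4634 in S134A-GR vehicle.

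**Figure D1:**
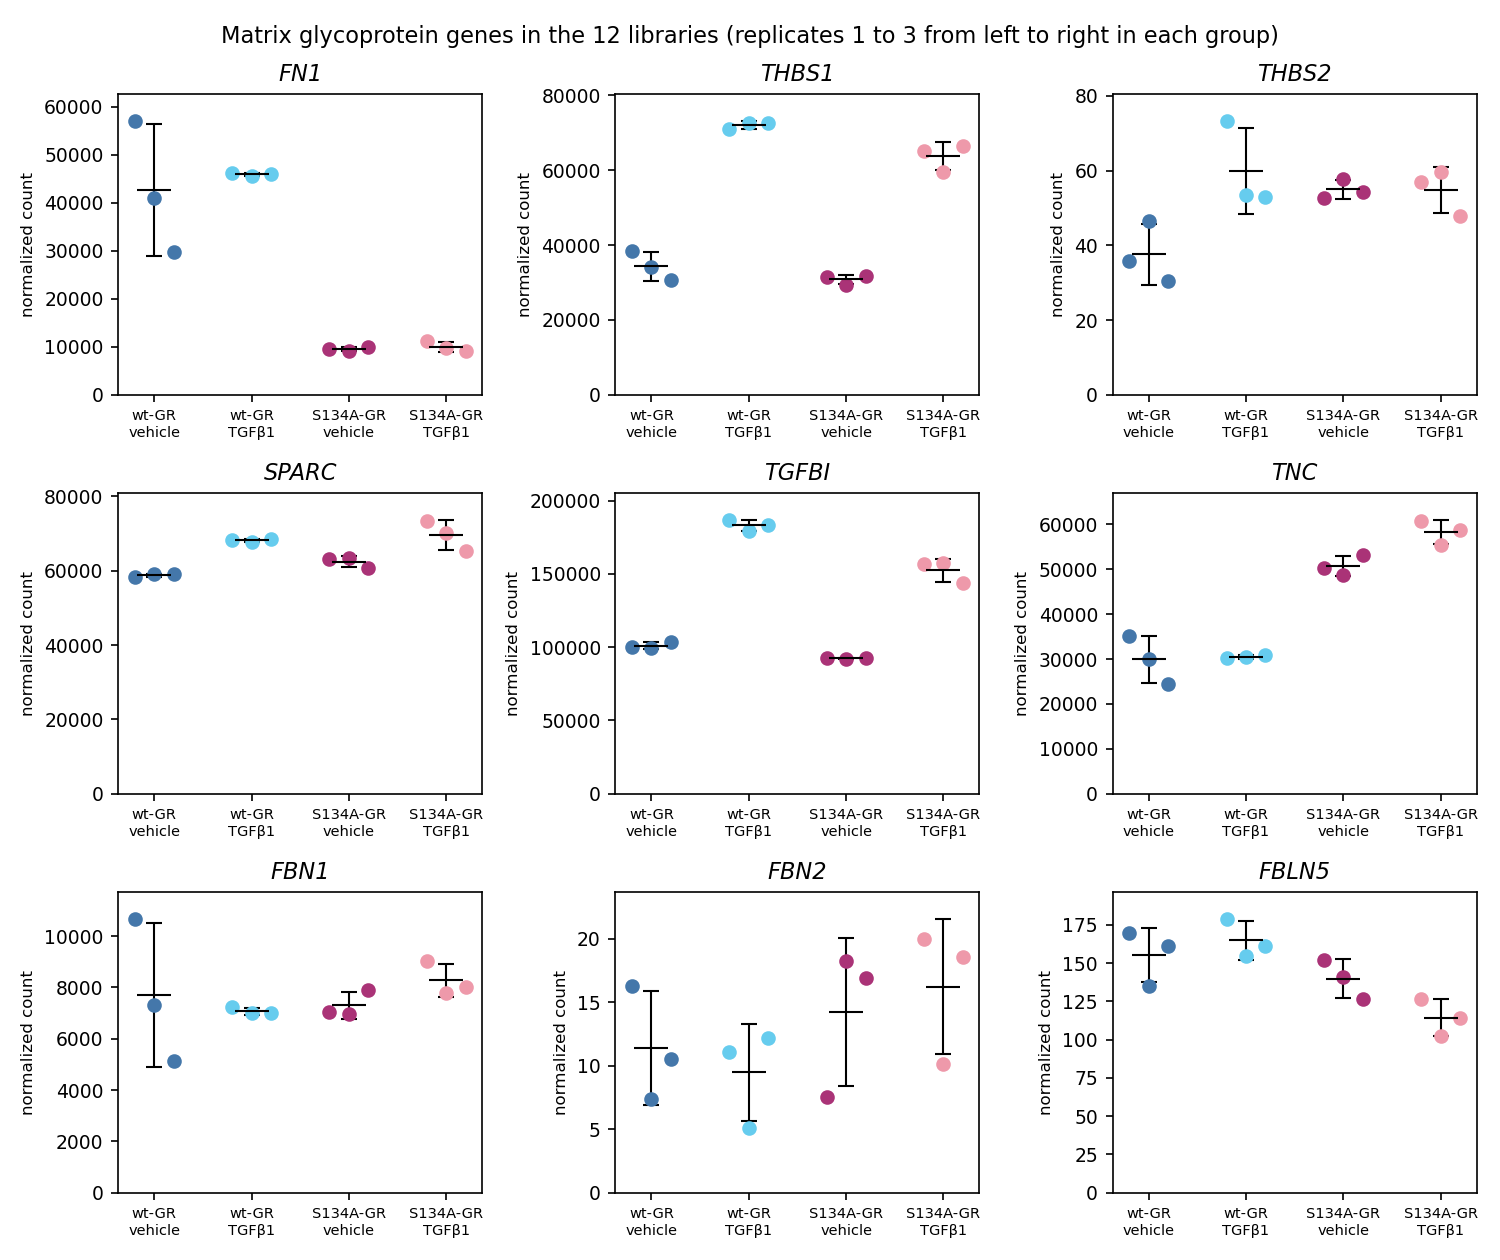
Normalized count (y axis, linear, from 0, own scale per panel) of each of the 9 members in the 12 libraries; points are libraries, the bar is the mean and whiskers are 1 SD (n = 3). FN1 separates the 2 lines, THBS1 and TGFBI separate TGFβ1 from vehicle, and the wt-GR vehicle libraries of FN1, TNC and FBN1 are spread wider than the other groups.

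Between the lines under vehicle, 4 of 9 members passed the threshold (limma, adjusted p under 0.05): TNC and THBS2 were higher in S134A-GR cells, where 25% of all genes were, and FN1 and TGFBI lower, where 26.5% were. That is a smaller share than the 51.5% of all tested genes that passed, and the count says nothing particular to the members. Under TGFβ1, 5 of 9 members passed against 48.8% of all genes: TNC higher (23.1% of all genes), and FN1, FBLN5, TGFBI and THBS1 lower (25.7%). With a log2 change of at least 1 also required, FN1 was the 1 member left in both comparisons, where 9.51% and 8.46% of all genes were. TGFβ1 against vehicle in wt-GR cells gave 4 of 9 members, all higher (THBS1, TGFBI, SPARC and THBS2), against 21% of all genes, with 11.2% higher and 9.82% lower. In S134A-GR cells 3 of 9 rose (THBS1, TGFBI and SPARC) against 18.7% of all genes, with 10% higher and 8.69% lower. No member reached a log2 change of 1.5 with treatment, which 1.24% of all genes did in wt-GR and 0.834% in S134A-GR cells. The median log2 change of the 9 members was 0.16 in wt-GR and 0.18 in S134A-GR cells, beside medians over all genes of -0.0046 and -0.0097.

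**Figure D2:**
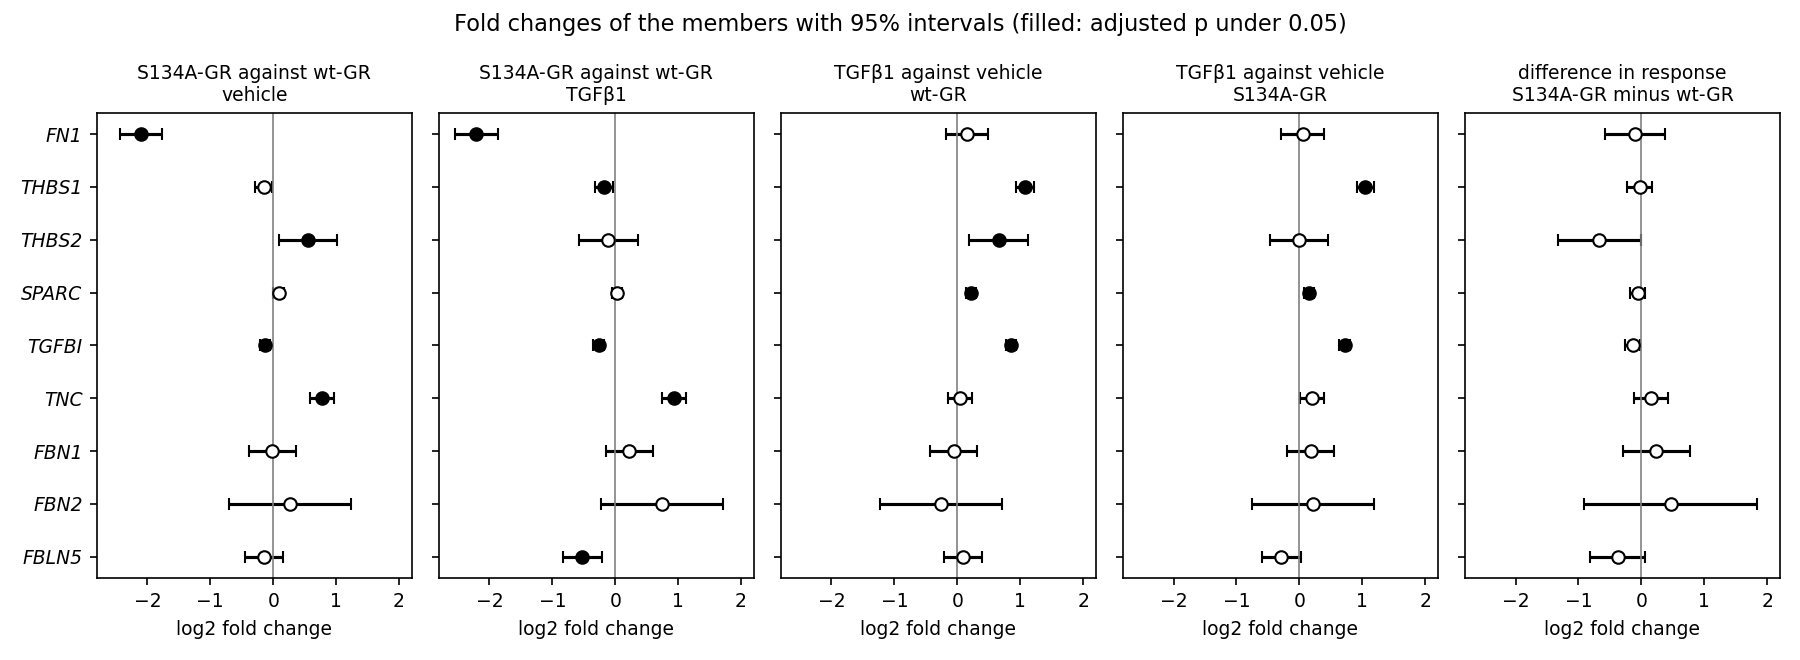
Log2 fold change (x axis) with its 95% interval for each member (rows) in the 4 comparisons and for how the TGFβ1 response differed by line; filled points have an adjusted p under 0.05 (limma). FN1 lies near -2 in both comparisons of the lines, TNC between 0.78 and 0.93, and THBS1 near 1 in both treatment comparisons.

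FN1 (ENSG00000115414.21, GRCh38 chromosome 2, 215360440 to 215436073, minus strand, 46 exons in the MANE Select transcript) showed the largest difference of any member between the lines. In wt-GR vehicle its 3 libraries held 57099, 41066 and 29774 normalized counts, and in wt-GR TGFβ1 46271, 45651 and 45991. In S134A-GR vehicle they held 9597, 9197 and 9951, and in S134A-GR TGFβ1 11127, 9733 and 9049. The lowest wt-GR library was thus far above the highest S134A-GR library, and the groups of the 2 lines did not overlap. In RNA from whole cultures, fewer cells with FN1 RNA and less FN1 RNA per cell cannot be told apart. The fold was 4.30-fold lower in S134A-GR under vehicle (SE 0.16 on the log2 scale, adjusted p = 7.88e-08) and 4.63-fold lower under TGFβ1 (adjusted p = 5.26e-08, limma). TGFβ1 gave a log2 change of 0.16 in wt-GR cells (95% interval -0.18 to 0.50, adjusted p = 0.546) and 0.05 in S134A-GR cells (-0.28 to 0.39, adjusted p = 0.877). Without wt-GR vehicle replicate 1 the wt-GR value was 0.39 and passed (adjusted p = 0.0173), and without replicate 3 it was -0.075 (adjusted p = 0.67), so the response of FN1 in wt-GR cells turned on which of these libraries was used. The model estimated 1 spread per gene from all 4 groups, so the FN1 interval in S134A-GR cells also carries the wt-GR vehicle spread. The log2 SDs of FN1 were 0.47 in wt-GR vehicle, 0.06 in S134A-GR vehicle and 0.15 in S134A-GR TGFβ1.

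The promoter of FN1 is shown because FN1 carried the largest difference between the lines, and those of THBS1 and TGFBI because these were the members with the largest TGFβ1 responses in both lines. Each is the stretch of 250 bases before the start in RefSeq (GRCh38.p14), read 5′ to 3′ on the strand of the gene, and capitals mark matches to 5 motifs searched on both strands in the 300 bases from 250 before to 50 after each start.
FN1 promoter (chr2:215436069-215436318, minus strand): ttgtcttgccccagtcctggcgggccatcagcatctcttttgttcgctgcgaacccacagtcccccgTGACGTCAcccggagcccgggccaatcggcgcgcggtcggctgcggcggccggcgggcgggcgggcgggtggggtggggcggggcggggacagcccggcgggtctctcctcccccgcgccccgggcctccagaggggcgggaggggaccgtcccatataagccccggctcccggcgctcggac
THBS1 promoter (chr15:39580829-39581078, plus strand): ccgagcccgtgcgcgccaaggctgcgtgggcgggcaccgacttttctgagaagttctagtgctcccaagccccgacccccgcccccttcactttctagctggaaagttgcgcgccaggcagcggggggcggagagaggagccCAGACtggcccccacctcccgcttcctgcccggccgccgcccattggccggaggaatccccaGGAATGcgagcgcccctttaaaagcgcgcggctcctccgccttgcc
TGFBI promoter (chr5:136028738-136028987, plus strand): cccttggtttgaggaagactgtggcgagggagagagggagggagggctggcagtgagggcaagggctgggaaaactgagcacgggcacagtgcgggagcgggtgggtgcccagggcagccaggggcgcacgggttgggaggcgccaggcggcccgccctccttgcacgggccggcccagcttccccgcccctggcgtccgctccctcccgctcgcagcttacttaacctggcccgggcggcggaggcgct
The capitals in FN1 are the cAMP response element TGACGTCA, 183 bases before the start, a motif found in 1.84% of 34943 promoters and in no other member. In THBS1 they are CAGAC, the core that SMAD proteins bind, 108 bases before the start, and GGAATG, a TEAD element, 46 bases before it. CAGAC was found in 45.3% and GGAATG in 14.0% of all promoters. TGFBI held none of the 5 motifs in this window. The AP-1 motif TGANTCA (7.72% of promoters) was in no tested member, and the glucocorticoid response element, searched as its palindromic consensus (0.389% of promoters), in none of the 10. Of the 9 tested members, 5 held CAGAC (THBS1, THBS2, SPARC, TNC and FBLN5) and 4 held GGAATG (THBS1, THBS2, SPARC and FBN1). FBLN5 held CAGAC in its promoter at 91946983 to 91947282 and not in its promoter at 91947645 to 91947944. A match is a description of letters and not of binding.

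TNC (GRCh38 chromosome 9, 115019575 to 115118207, minus strand) moved between the lines in the opposite direction. Its libraries held 35170, 30018 and 24519 normalized counts in wt-GR vehicle and 30159, 30345 and 30871 in wt-GR TGFβ1. In S134A-GR cells they held 50323, 48820 and 53075 under vehicle and 60679, 55299 and 58771 under TGFβ1. Every S134A-GR library was above every wt-GR library. TNC was 1.71-fold higher in S134A-GR under vehicle (log2 0.78, SE 0.09, adjusted p = 5.57e-06) and 1.91-fold higher under TGFβ1 (adjusted p = 1.05e-06, limma). The TGFβ1 response was 0.04 on the log2 scale in wt-GR cells (adjusted p = 0.803) and 0.20 in S134A-GR cells (adjusted p = 0.153), and the latter passed without wt-GR vehicle replicate 1 (adjusted p = 0.0321) or replicate 3 (0.0154), and with all libraries of only the groups compared (0.0423). FN1 was thus more abundant than TNC in counts in wt-GR vehicle, by a ratio of 1.21 to 1.62 over the 3 libraries on transcripts of nearly equal length (8.39 and 8.50 kb), and less abundant in S134A-GR vehicle, by a ratio of 0.187 to 0.191.

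THBS1 (GRCh38 chromosome 15, 39581079 to 39599466, plus strand) rose with TGFβ1 in both lines. Its libraries held 38304, 34018 and 30697 normalized counts in wt-GR vehicle and 70958, 72734 and 72744 in wt-GR TGFβ1. In S134A-GR they held 31335, 29365 and 31705 under vehicle and 65266, 59553 and 66479 under TGFβ1. No vehicle library reached any TGFβ1 library. The rise was 2.11-fold in wt-GR (log2 1.08, SE 0.07, adjusted p = 2.97e-08) and 2.07-fold in S134A-GR cells (adjusted p = 4.65e-08, limma). The difference between the 2 responses was -0.03 on the log2 scale with a 95% interval of -0.23 to 0.17. Between the lines THBS1 was lower in S134A-GR by 0.18 on the log2 scale under TGFβ1 (adjusted p = 0.0338), a call lost without any 1 of the wt-GR TGFβ1 libraries or without S134A-GR TGFβ1 replicate 2 (adjusted p between 0.0577 and 0.149). Under vehicle the value was -0.15 (adjusted p = 0.0656), which passed without wt-GR vehicle replicate 3 (-0.23, adjusted p = 0.00319) and in all libraries by edgeR with TMM (adjusted p = 0.0469) or RLE scaling (0.0487) and by DESeq2 (0.0307). Of its exon bases 7.58% overlap FSIP1 and THBS1-AS1 on the other strand, and the strand setting of the counting is not given in the sources used here.

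TGFBI (GRCh38 chromosome 5, 136028988 to 136063818, plus strand), a secreted integrin-binding protein, also rose with TGFβ1 in both lines and is the member with the highest level. In wt-GR cells its libraries held 100020, 99406 and 103480 normalized counts under vehicle and 186770, 179320 and 183080 under TGFβ1. In S134A-GR cells they went from 92877, 92002 and 92326 to 156440, 157120 and 143510. All 4 groups were separate from each other. The rise was 1.81-fold in wt-GR (log2 0.86, SE 0.04, adjusted p = 1.15e-09) and 1.65-fold in S134A-GR cells (log2 0.72, adjusted p = 9e-09, limma). The difference between these responses, -0.14 on the log2 scale (95% interval -0.25 to -0.02), had an unadjusted p of 0.0227 and an adjusted p of 0.439 in limma across all genes. Between the lines under vehicle TGFBI was lower in S134A-GR by 0.13 on the log2 scale (adjusted p = 0.0118).

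SPARC (GRCh38 chromosome 5, 151661096 to 151686975, minus strand), a collagen-binding protein, rose by a small amount with the smallest replicate spread of the members in wt-GR cells. Its wt-GR libraries held 58256, 59062 and 59037 normalized counts under vehicle and 68169, 67791 and 68548 under TGFβ1. Its S134A-GR libraries held 63144, 63358 and 60736 under vehicle and 73439, 70042 and 65379 under TGFβ1. Vehicle and TGFβ1 did not overlap within either line. The rise was 1.16-fold in wt-GR (adjusted p = 0.00113) and 1.11-fold in S134A-GR cells (adjusted p = 0.0111, limma), the latter lost without S134A-GR vehicle replicate 3 (adjusted p = 0.0576) or TGFβ1 replicate 1 (0.0502) and with only the groups compared in the fit (0.0815). Between the lines under vehicle the log2 difference of 0.09 missed the threshold (adjusted p = 0.0779) and passed without S134A-GR TGFβ1 replicate 1 (0.0438) or replicate 3 (0.0311) and with only the groups compared (0.0455). TGFBI, SPARC and FBN2 lie on the chromosome of NR3C1, at 7.21, 8.23 and 14.6 Mb from it.

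The other members were lower or spread wider. FBN1, the main fibrillin, was at 7705 ± 2790 normalized counts in wt-GR vehicle, 7074 ± 137 in wt-GR TGFβ1, 7303 ± 515 in S134A-GR vehicle and 8270 ± 657 in S134A-GR TGFβ1 (SD, n = 3). It passed in no comparison by the model of all 4 groups, and between the lines under TGFβ1 it passed (log2 0.22, adjusted p = 0.00747, limma) when only the groups compared were fitted. FBLN5 was at 155.3 ± 17.8, 164.8 ± 12.6, 139.7 ± 12.7 and 114.4 ± 12.1 in the same order of groups, and was lower in S134A-GR than in wt-GR cells under TGFβ1 by 0.53 on the log2 scale (SE 0.14, adjusted p = 0.00717, limma). Its 3 S134A-GR TGFβ1 libraries, at 126.5, 102.3 and 114.5, lay below all 3 wt-GR TGFβ1 libraries, at 178.9, 154.5 and 160.9. FBN2, a fibrillin of developing tissue, was at 5.13 to 19.97 normalized counts in all libraries. These values lie near the 2.15 to 4.89 normalized counts that 3 reads are worth. FBN2 passed in no comparison (adjusted p between 0.199 and 0.853, limma). Its interval between the lines under TGFβ1 was wide, at -0.23 to 1.71 on the log2 scale, so a difference there was not excluded.

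THBS2, the anti-angiogenic relative of THBS1, was at a much lower level. Its libraries held 35.8, 46.5 and 30.5 normalized counts in wt-GR vehicle, 73.3, 53.5 and 53.0 in wt-GR TGFβ1, 52.8, 57.8 and 54.3 in S134A-GR vehicle, and 57.1, 59.7 and 47.9 in S134A-GR TGFβ1. The wt-GR vehicle libraries lay below all others and the remaining 3 groups overlapped. THBS2 passed between the lines under vehicle (log2 0.55, adjusted p = 0.0457) and with TGFβ1 in wt-GR cells (log2 0.66, adjusted p = 0.0442, limma), and these calls were lost in 15 of 23 alternatives each. The first was lost when wt-GR vehicle replicate 1 or 3, wt-GR TGFβ1 replicate 2 or 3, any S134A-GR vehicle library, or S134A-GR TGFβ1 replicate 1 or 2 was left out (adjusted p between 0.0517 and 0.163). The second was lost without any of the same libraries and also without wt-GR TGFβ1 replicate 1 (adjusted p between 0.0504 and 0.176). Of the exon bases of THBS2, 31.2% overlap THBS2-AS1 on the other strand, and reads of both genes cannot be told apart without the strand.

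The spread of FN1 in wt-GR vehicle was large for its level. Its coefficient of variation was 32.2% there, beside 0.675% in wt-GR TGFβ1, 3.94% in S134A-GR vehicle and 10.6% in S134A-GR TGFβ1. On the log2 scale its SD of 0.47 exceeded that of 99.3% of the 722 genes within 1 log2 unit of its mean level in that group, whose median SD was 0.05. FBN1 had an SD of 0.53 (larger than 99.8% of 3983 genes of like level), TNC 0.26 (97.1% of 1103) and THBS1 0.16 (93.0% of 926). SPARC and TGFBI had SDs of 0.01 and 0.03, larger than 3.37% and 23.1% of the genes of their levels.

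The members with a wide spread deviated together. In wt-GR vehicle replicate 1, FN1 was 0.47 above its group mean on the log2 scale, FBN1 0.53, TNC 0.25 and THBS1 0.16 above, and in replicate 3 they stood at -0.47, -0.53, -0.27 and -0.16. In replicate 2 all of them lay within 0.03 of the mean. These 4 have the longest transcripts among the 6 most abundant members, at 7.79 to 11.6 kb, whereas SPARC (3.45 kb) and TGFBI (2.71 kb) stayed within 0.04 in all 3 libraries. Transcript length moved with this pattern over the whole table: among genes with a mean of at least 100 normalized counts, of which 88.5% had a length, the 1046 genes over 8 kb had a median deviation of 0.14 in replicate 1 and -0.15 in replicate 3, and the 2425 genes under 2 kb one of -0.05 and 0.07. In the other 9 libraries the median of the genes over 8 kb lay between -0.06 and 0.07. FN1 deviated more than the median of its length class, and the part of length in its spread was not tested. Replicate 1 was also the library with the fewest reads, while replicates 2 and 3 held 85816979 and 86199175. The part of depth in the spread was not tested.

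With only replicate 2 kept in wt-GR vehicle, this lone library was assumed to vary like the other groups. FN1 was then lower in S134A-GR vehicle by 2.10 on the log2 scale and TNC higher by 0.76. TGFBI (-0.11) and THBS2 (0.24) kept their direction between the lines under vehicle, with smaller values than in all libraries. Comparisons without wt-GR vehicle keep their log2 values in this fit, such as TNC (0.20) and FBN1 (0.18) with TGFβ1 in S134A-GR cells. Calls are not given for a fit with 1 library in a group.

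**Figure D3:**
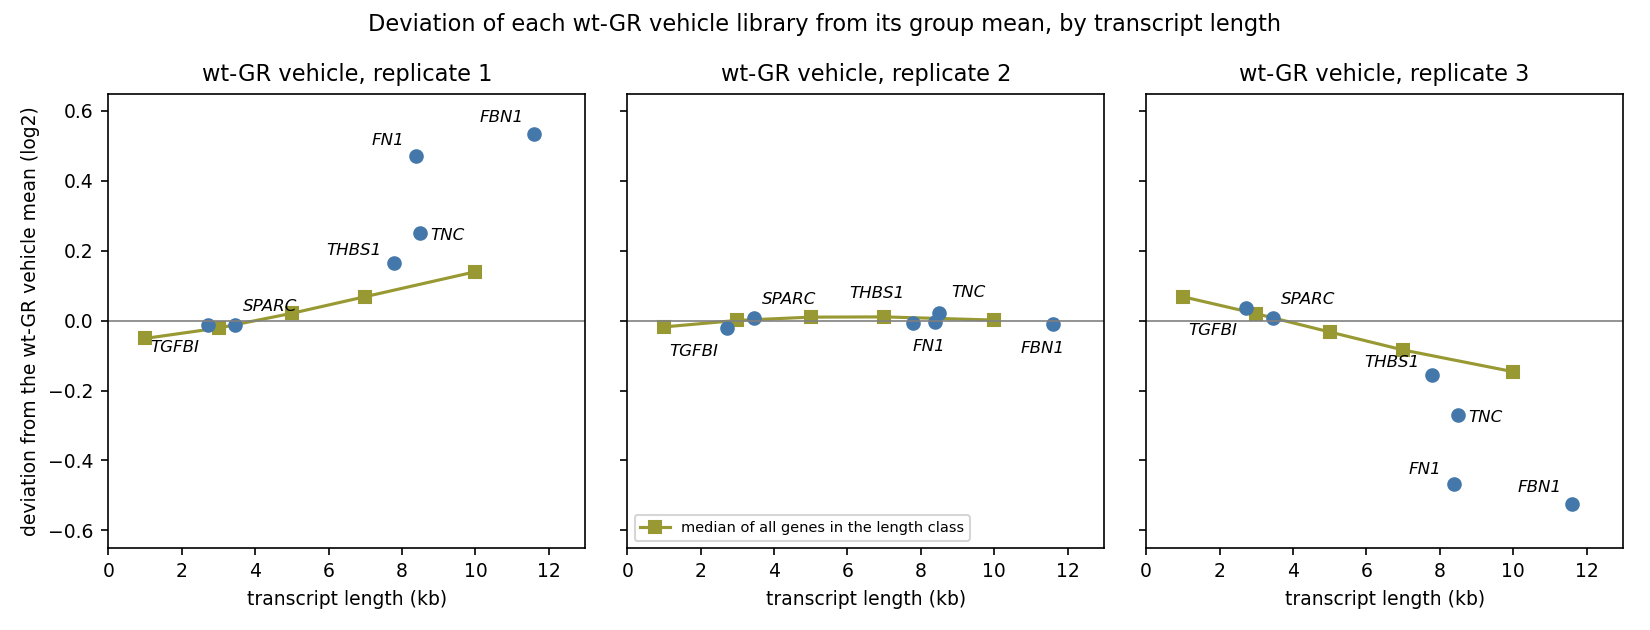
Deviation of each wt-GR vehicle library from the mean of the 3 (y axis, log2) against transcript length (x axis, kb) for the 6 most abundant members (circles), with the median over all genes of each length class (squares). FN1, FBN1, TNC and THBS1 lie above the mean in replicate 1 and below it in replicate 3, in the direction of the long genes, and lie at the mean in replicate 2.

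None of the 9 members responded to TGFβ1 differently in the 2 lines past the threshold, where 77 genes or 0.414% of all tested genes did (limma), 0.167% with a higher and 0.248% with a lower response in S134A-GR cells, and 1728 had an unadjusted p under 0.05. In limma's fit across all genes 2 members had an unadjusted p under 0.05, TGFBI and THBS2 (-0.67 on the log2 scale, adjusted p = 0.532). The count was also 0 by edgeR with either scaling and by DESeq2. The 95% intervals of the difference excluded a log2 size of 0.25 for THBS1 and SPARC (-0.17 to 0.06), and were wide for FN1 (-0.58 to 0.37), FBN1 (-0.29 to 0.77) and FBN2 (-0.91 to 1.84).

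Copy number was not measured in these 2 clones, so the tested genes on both sides of each member were described. Around FN1 the 40 neighbours, over 10.4 Mb, had a median log2 difference between the lines of -0.31 under vehicle, and 21 of them (52.5%) were lower and 2 higher in S134A-GR, where 26.5% of all genes were lower and 25% higher. Under TGFβ1 the median was -0.34, again with 21 lower and 2 higher. The nearest 10 had a median of -0.44, with 7 lower and none higher. The difference of FN1 itself, -2.10, was larger than that of any of its 40 neighbours. The lowest of them was -1.90, for UNC80 at -5.66 Mb (adjusted p = 0.0289, limma). Among the nearest 10 the lowest was -0.97, for ABCA12 (adjusted p = 0.117). Around TNC the 40 neighbours, over 9.01 Mb, had a median of 0.35 under vehicle, with 24 (60.0%) higher and 4 lower, and of 0.31 under TGFβ1. The nearest 10 to TNC had a median of 0.52, with 6 higher and 0 lower. Under vehicle 9 of the 40 were as high as TNC or higher. Of these, AMBP (0.93, adjusted p = 0.357) and MORN5 (0.82, adjusted p = 0.463, limma) did not pass. Around THBS1, SPARC, TGFBI, FBN1 and FBLN5 the medians under vehicle lay between -0.02 and 0.03. For FBN2 the median was -0.18, with 19 of 40 neighbours lower and 5 higher in S134A-GR. The 28 neighbours of THBS2 had a median of -0.08, with 6 lower and 3 higher. Those of NR3C1, the edited gene, had a median of -0.09, with 15 of 40 lower and 5 higher. The part of such regional differences in the values of FN1 and TNC was not tested.

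**Figure D4:**
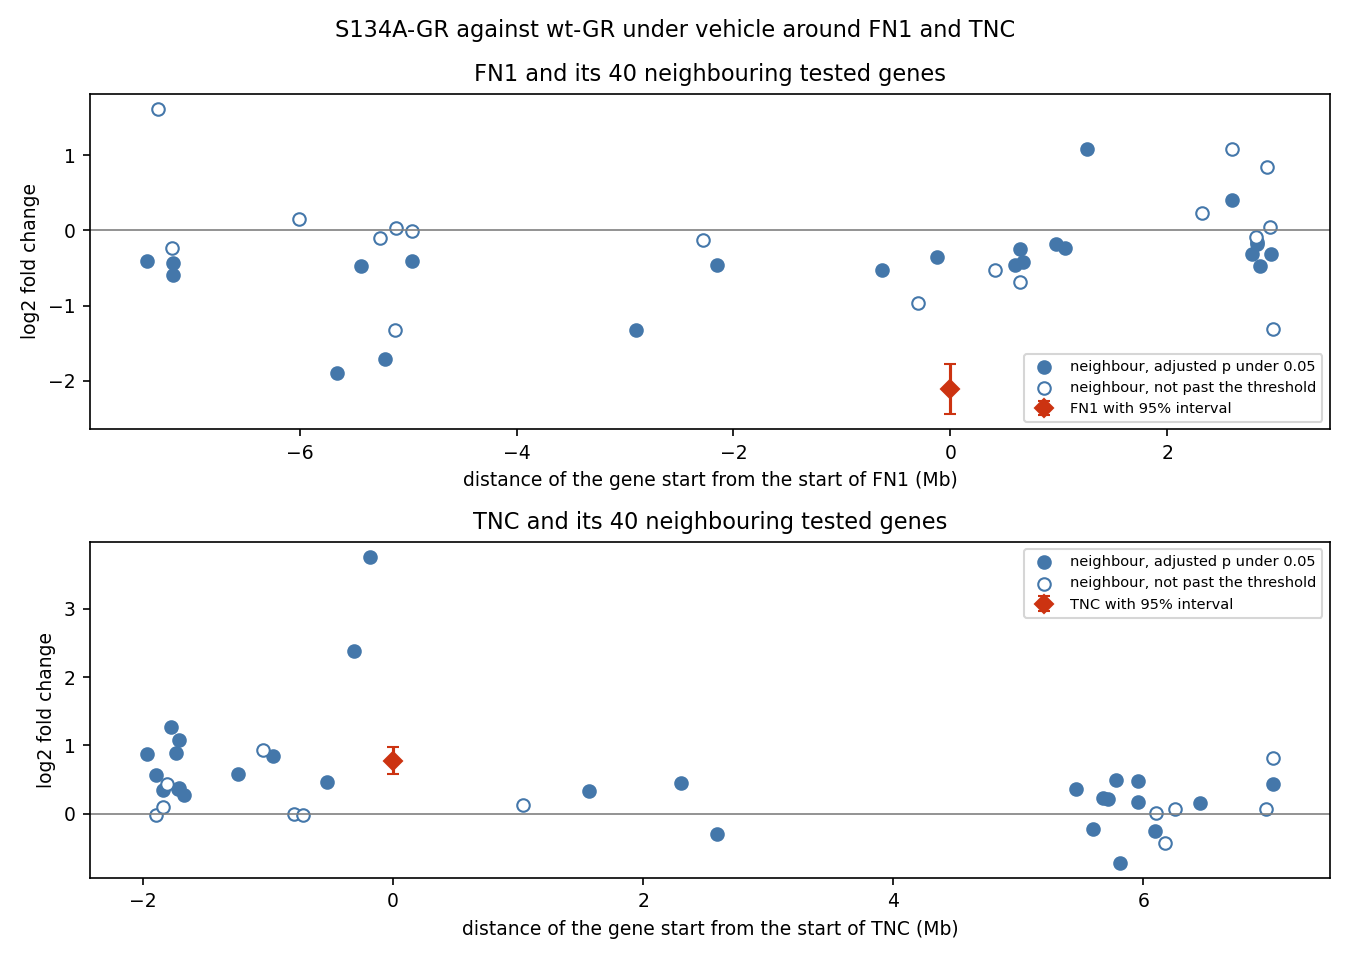
Log2 fold change of S134A-GR over wt-GR in vehicle libraries (y axis) of the 40 tested genes around FN1 (top) and TNC (bottom) by distance of their start from that of the member (x axis, Mb); filled circles have an adjusted p under 0.05, the diamond is the member with its 95% interval. Filled points lie mostly below 0 around FN1 (21 lower, 2 higher) and mostly above 0 around TNC (24 higher, 4 lower).

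The genes whose pattern over the 12 libraries was most like that of FN1, by the root mean square difference of centred log2 values among 12467 genes, were EDIL3 (0.18), CTSS (0.22), MYO1D (0.23), SPDEF (0.25) and FERMT3 (0.26). EDIL3, a secreted integrin-binding glycoprotein, was at 11455, 11042 and 10501 normalized counts in wt-GR vehicle and 2469, 2702 and 2445 in S134A-GR vehicle. Its coefficient of variation in wt-GR vehicle was 4.35%, so it shared the difference between the lines with FN1 and not the spread. Being chosen for its likeness to FN1 over the same libraries, its difference between the lines is a description.

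Among 49 tested genes of related matrix families, 16 were higher and 15 lower in S134A-GR under vehicle, 12 higher and 16 lower under TGFβ1, and none passed the test of the difference in response. Over all tested genes 25% were higher and 26.5% lower under vehicle, and 23.1% and 25.7% under TGFβ1, and no test of these lists or families was run. TGFβ1 raised 15 and lowered 2 of them in wt-GR cells and raised 12 and lowered 4 in S134A-GR cells, where 11.2% and 9.82% of all genes were higher and lower in the former and 10% and 8.69% in the latter. In the CCN family of matricellular proteins, 3 of 6 were lower and 1 higher between the lines under vehicle. CYR61, a YAP target, was at 57560 ± 3510 normalized counts in wt-GR and 34740 ± 362 in S134A-GR vehicle (log2 -0.73, adjusted p = 2.01e-07, limma), and NOV was at 2001 ± 105 and 4397 ± 39.0. CTGF rose with TGFβ1 by 0.49 on the log2 scale in wt-GR and by 0.57 in S134A-GR cells. Of 16 elastic fibre and microfibril genes 6 rose and 1 fell with TGFβ1 in wt-GR cells, led by the latent TGFβ binding proteins LTBP3 (2508 ± 92.7 under vehicle and 8270 ± 628 under TGFβ1) and LTBP2 (2527 ± 195 and 5783 ± 145). In S134A-GR cells 5 rose and 1 fell, with LTBP2 going from 4187 ± 189 to 12080 ± 264 and LTBP3 from 1870 ± 113 to 3987 ± 644. The responses of LTBP3 (difference -0.64 on the log2 scale, adjusted p = 0.0561) and LTBP2 (0.33, adjusted p = 0.0878) came closest to differing by line. Of 17 other glycoproteins 8 were higher and 4 lower between the lines under vehicle, with SPP1 (osteopontin) at 98.2 ± 21.3 in wt-GR and 1611 ± 71.0 in S134A-GR and ECM1 at 8229 ± 337 and 16690 ± 688. In the SPARC family 2 of 6 genes rose with TGFβ1 in wt-GR cells, SPOCK1 by 0.42 and FSTL1 by 0.35 on the log2 scale, and 2 rose and 1 fell in S134A-GR cells. Of 2 other tested thrombospondins, THBS3 passed between the lines under vehicle, at 755.6 ± 96.6 in wt-GR and 1545 ± 154 in S134A-GR. THBS4 did not (adjusted p = 0.566, limma). Neither of 2 tested tenascins other than TNC passed in any comparison.

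**Figure D5:**
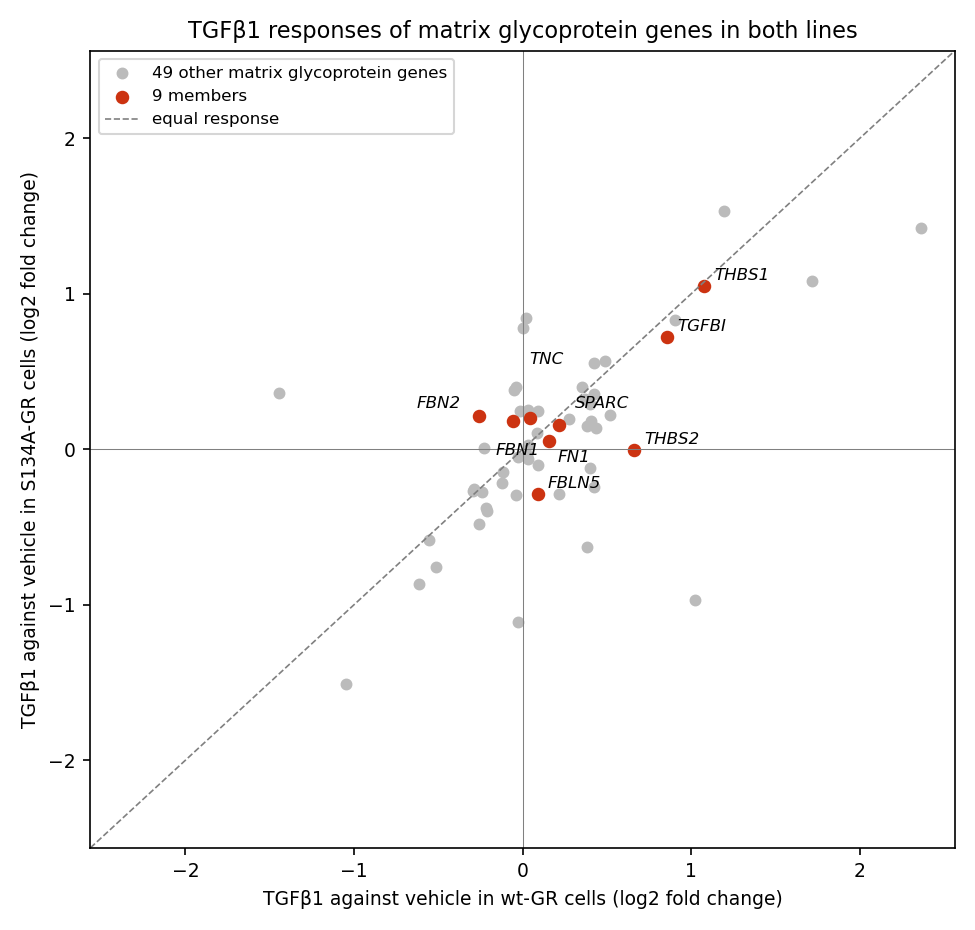
Log2 fold change with TGFβ1 in S134A-GR cells (y axis) against that in wt-GR cells (x axis) for the 9 members (red) and 49 other matrix glycoprotein genes (grey); the dashed line marks equal responses. THBS1 (1.08 and 1.05) and TGFBI (0.86 and 0.72) lie close to the line at the upper right and FN1 near the origin.

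Receptors that bind these proteins were counted in the same way. Of 16 integrin subunits, syndecans and thrombospondin receptors, 3 were higher and 7 lower in S134A-GR under vehicle, and 6 rose and 3 fell with TGFβ1 in wt-GR cells, against 6 and 2 in S134A-GR cells. The 10 called between the lines stand beside 51.5% of all genes, and the 9 and 8 called with TGFβ1 beside 21% and 18.7%. ITGB3, the β3 partner of ITGAV, was at 1008 ± 65.7 normalized counts in wt-GR vehicle and 2254 ± 86.3 in wt-GR TGFβ1, and at 426.1 ± 19.1 and 1050 ± 113 in S134A-GR cells. It was lower in S134A-GR by 1.24 on the log2 scale under vehicle (adjusted p = 1.77e-08) and rose by 1.16 in wt-GR and 1.30 in S134A-GR cells (adjusted p = 1.06e-07 and 4.22e-08, limma). ITGA5, the fibronectin receptor subunit, rose with TGFβ1 by 0.49 and 0.41 and differed between the lines under vehicle by 0.04 (adjusted p = 0.388). SDC4, a heparan sulfate co-receptor for fibronectin, was lower in S134A-GR by 0.75 under vehicle (adjusted p = 9.08e-10). ITGB8 went the other way, higher in S134A-GR under vehicle (241.3 ± 50.1 in wt-GR and 468.4 ± 10.7 in S134A-GR) and lower with TGFβ1 in both lines (to 77.3 ± 14.3 and 207.6 ± 26.3).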

How the data were processed

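RNA of 12 MDA-MB-231 libraries was sequenced, and per the labels and methods the authors trimmed reads, aligned them with HISAT2 to hg38, summed the aligned reads over genes (featureCounts) and scaled each library by its DESeq2 1.22.2 size factor. The deposited values are thus a signal, normalized counts. Whole reads were recovered from them (100% of values whole within 0.001) and used for the edgeR and DESeq2 alternatives. The main test was limma 3.58.1 (eBayes with trend) on log2(normalized count + 1) in R 4.3.3 for the 18579 symbols with at least 10 reads over the 12 libraries, as 1 model of 4 groups with Benjamini-Hochberg adjustment. A fold is on that scale. On simulated data, limma recovered 100% of 200 genes changed 4-fold between the lines under vehicle among 18060, and 6.98% of the genes called were false. The false share was 5.66% by edgeR and 11.1% by DESeq2, which also recovered 100%. Spread beyond counting error was set alike for every simulated gene, so these rates do not describe calls of smaller changes or wider spreads. Positions and lengths come from GENCODE v44, matched for 16578 symbols. Intervals cover the spread between libraries, and floors of 3 reads cover counting error only. The annotation and strand setting of the counting are not given in the sources used here.

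The members and lists were chosen with earlier results of these data known, and the motifs after the values were seen. All members are named, and from each other list up to 3 genes per comparison with the largest change past the threshold. ITGA5, and the difference in response of LTBP2 and LTBP3, were singled out after their values were seen. The alternatives were other pseudocounts, filters, scalings and tools, a replicate block, only the groups compared, each library left out, and, chosen after seeing the data, 2 wt-GR vehicle libraries left out together.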

Additional observations from a re-analysis of the deposited data

Results flagged for a closer look

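No member differed between the lines in its TGFβ1 response past the threshold. Genes of the other lists did, by limma's test of the difference across all genes. SDC1, a syndecan that binds fibronectin and thrombospondin, was at 17780 ± 264 under vehicle and 22050 ± 491 under TGFβ1 in the wt-GR line, and at 19510 ± 283 and 20460 ± 338 in the S134A-GR line (normalized counts, SD, n = 3), a difference of -0.24 on the log2 scale (adjusted p = 0.0256). Of the 8 treatment check genes COL1A1 (-1.17, adjusted p = 0.00265), PMEPA1 (-0.72, adjusted p = 0.000909) and TGFB1 (-0.48, adjusted p = 0.0126) rose less in S134A-GR cells, and all 3 rose past the threshold in both lines. COL1A1 started higher in S134A-GR cells, going from 2271 ± 139 to 7923 ± 752, beside 1153 ± 198 to 8945 ± 486 in wt-GR cells. PMEPA1 (4723 ± 325 in wt-GR and 4367 ± 162 in S134A-GR vehicle) and TGFB1 (14050 ± 1250 and 10940 ± 505) did not start higher. The fibroblast marker PDGFRB also differed (-0.68, adjusted p = 0.000909), at 2143 ± 35.9 and 3888 ± 151 in wt-GR cells and 1912 ± 59.4 and 2166 ± 119 in S134A-GR cells.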

How the results depend on the processing

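Over 23 alternatives (22 for the difference in response) the lower FN1 and higher TNC of S134A-GR cells and the rise of THBS1 and TGFBI with TGFβ1 in both lines kept their direction and passed in all of them. Some of these alternatives could not change a direction. Leaving out a library of a group not compared, a replicate block, or fitting only the groups compared leaves the log2 change as it was. Only the adjusted p can move in those settings. The counts of members called stayed within 1.5 times, except with wt-GR vehicle replicates 1 and 3 both left out. There they moved further between the lines under vehicle and for TGFβ1 in S134A-GR cells. The coefficient of variation of FN1 in wt-GR vehicle was between 22.5% and 44.5% with 1 library left out. With both libraries out, FBLN5 between the lines under vehicle was 0.0423, FBN2 with TGFβ1 in wt-GR cells 0.24 and the FBN2 difference in response -0.0312 on the log2 scale, each of the opposite sign. Leaving out 1 library also turned the sign of values that had not passed. Between the lines the ranges were -0.28 to 0.25 for FBN1 under vehicle, and -0.19 to 0.0384 for THBS2 and -0.0106 to 0.0733 for SPARC under TGFβ1. With TGFβ1 in wt-GR cells they were -0.075 to 0.39 for FN1, -0.0933 to 0.17 for TNC, -0.32 to 0.21 for FBN1, -0.51 to 0.0916 for FBN2 and -0.0068 to 0.15 for FBLN5. In S134A-GR cells they were -0.0293 to 0.12 for FN1, -0.0695 to 0.0865 for THBS2 and -0.16 to 0.50 for FBN2. For the difference in response they were -0.34 to 0.13 for FN1, -0.11 to 0.05003 for THBS1 and -0.0287 to 0.50 for FBN1. The cause was not tested. Same-numbered libraries did not deviate together on average (mean r 0.000891 over 12468 genes, from -0.155 to 0.154, 2 of 18 pairs above 0.1). With 3 libraries per group this cannot show whether same-numbered libraries were handled together. With a replicate block the members called were 4 and 5 between the lines, 3 in each TGFβ1 comparison, with THBS2 lost in wt-GR cells, and 0 for the difference. The share of all genes called was not taken for any alternative, so these counts are not read as a result about the members. FBN2 rests on 7 to 26 reads per library and THBS2 on 22 to 73.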
